A study of Homo sapiens with 6 samples.

Results

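The serpins and the SPINK proteins are 2 families of protease inhibitors, and their genes were followed here in RKO cells given the PARP inhibitor olaparib or its solvent, DMSO. Members were taken by name: every row of the count table with a SERPIN symbol of clades A to I or a SPINK symbol followed by a number. This gave 45 of 39396 genes, 35 serpins and 10 SPINK genes. All but 1 are annotated as protein coding, and SERPINA2 is a polymorphic pseudogene. RKO is an established human colorectal carcinoma line, and all 6 libraries carry the genotype label WT. The study concerns olaparib sensitivity and the genes KAT2B and RAD51C. RNA was sequenced from 3 libraries of olaparib-treated cells and 3 of DMSO-treated cells, plated the day before. Dose and length of the olaparib treatment are not given in the sources.

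Serpins fold around a long reactive loop that acts as bait. A protease that cuts the loop is dragged across the serpin and held in a distorted, inactive state, so each inhibitor molecule is spent on 1 protease. Some serpins no longer inhibit anything and serve as hormone carriers, chaperones or signalling proteins. SPINK proteins instead carry small, disulfide-bonded Kazal domains that plug the active site of trypsin-like proteases without being consumed. In the gut and pancreas SPINK1 blocks trypsin that has become active too early, and in skin SPINK5 restrains the kallikreins that shed the outer layer.

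The groups differed across most of the transcriptome, and every member is read against that background. Library totals ran from 28715138 to 42423785 counts. With edgeR's quasi-likelihood test and Benjamini-Hochberg adjustment at 0.05, 12927 of 17078 tested genes were called, which is 75.7%. Higher calls made up 35.4% and lower calls 40.3%. Of 13 colorectal epithelium markers, KRT8 and KRT18 had a mean of at least 1 CPM in both groups, where CPM are counts scaled to the TMM-adjusted library size. EPCAM, at 0.999 CPM under DMSO, and MUC2 reached it under olaparib alone, and CDX2 and LGR5 under DMSO alone. The summed level of all 13 was 815 to 1093 CPM in olaparib libraries and 243 to 312 CPM in DMSO libraries. KRT8 and KRT18 made most of it, with means of 581 and 400 CPM under olaparib and 175 and 75.3 CPM under DMSO. CDX1 was at 0 in all 6 libraries, while CDX2 had no count under olaparib against 24.5 ± 2.0 CPM under DMSO (SD, n = 3). Of 7 genes that mark an embryonic kidney line, 7 reached 1 CPM in the DMSO group and 1, HOXA11, in the olaparib group. HOXA11 was higher under olaparib, at 25.6 against 19.6 CPM, though its call was lost in some refits. The summed level of the 7 was 248 to 430 CPM in DMSO libraries and 23.8 to 27.5 CPM in olaparib libraries. IRS4 was the highest of them under DMSO, at 220, 76.5 and 130 CPM. LIN28B, PAX2, NEFL and SIM1 had no count under olaparib. Whether these marker differences have a part in any result below was not tested. Treatment and any difference in the source of the cells cannot be told apart in this design.

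Sequences before the RefSeq starts of 5 SPINK genes are shown first, because SPINK1, SPINK5, SPINK6 and SPINK13 lie in 1 cluster and were all higher under olaparib, while SPINK2 on another chromosome was seen under DMSO alone. They come from RefSeq on GRCh38.p14, where 37 of the 45 members had an entry. Each window was the 250 bases before the listed start, and the printed stretch leaves out the gene's own annotated exons. Some members also have longer transcripts in GENCODE release 29 that begin before the RefSeq start. The stretches of SPINK5 and SPINK13 therefore lie within an intron of such a transcript, and those of SPINK1, SPINK6 and SPINK2 lie outside the annotated gene. Capitals mark GAANNTTC, the core of a heat shock element.
SPINK1, chr5:147831787-147831921, minus strand: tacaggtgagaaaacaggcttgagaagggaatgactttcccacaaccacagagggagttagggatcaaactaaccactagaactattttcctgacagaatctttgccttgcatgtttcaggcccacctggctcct
SPINK5, chr5:148063730-148063862, plus strand: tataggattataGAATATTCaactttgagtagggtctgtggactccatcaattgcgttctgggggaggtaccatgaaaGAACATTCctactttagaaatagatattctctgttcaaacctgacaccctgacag
SPINK6, chr5:148202528-148202777, plus strand: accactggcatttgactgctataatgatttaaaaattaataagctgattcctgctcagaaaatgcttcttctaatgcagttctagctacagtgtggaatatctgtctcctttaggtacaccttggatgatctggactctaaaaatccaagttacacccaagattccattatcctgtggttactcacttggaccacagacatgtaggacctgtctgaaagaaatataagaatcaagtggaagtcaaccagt
SPINK13, chr5:148268544-148268718, plus strand: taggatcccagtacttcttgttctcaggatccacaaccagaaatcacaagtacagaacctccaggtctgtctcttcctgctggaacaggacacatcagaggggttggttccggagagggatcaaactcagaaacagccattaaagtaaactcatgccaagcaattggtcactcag
SPINK2, chr4:56821870-56822119, minus strand: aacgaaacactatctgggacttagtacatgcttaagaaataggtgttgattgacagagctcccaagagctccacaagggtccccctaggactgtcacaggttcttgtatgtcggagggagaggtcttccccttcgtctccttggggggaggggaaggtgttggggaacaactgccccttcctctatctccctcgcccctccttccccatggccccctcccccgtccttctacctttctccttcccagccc

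The 4 motifs searched on both strands of the full windows were the AP-1 site TGAGTCA, the TATA box TATAAA, the GC box GGGCGG and the heat shock element GAANNTTC. A TATA box was found in 8 of 37 members (21.6%) and in 11.1% of all promoters. A GC box was found in 7 of 37 members (18.9%) and in 42.3% of all promoters. The windows of SPINK6, SPINK1 and SPINK2 held no AP-1 or heat shock match. CpG dinucleotides numbered 0 in SPINK1, 3 in SPINK5, 0 in SPINK6, 3 in SPINK13 and 5 in SPINK2. Over 27305 promoters the median was 11 and the quartiles were 3 and 23. Counts below the median were not particular to these 5 windows. SERPINE2, SERPINE3 and SERPINI1 had 6, 8 and 9, and the untested SPINK14, SPINK7 and SPINK9 had 1, 2 and 2. SERPINB1, SERPINB6 and SERPINH1 had 21, 26 and 20. An AP-1 match was found in 4 of 37 members and in 4.16% of all promoters. Among tested members it stood in SPINK13 and SERPINB8, with 60 and 21 bases between the match and the start. A heat shock element was found in 4 of 37 members and in 5.85% of all promoters, among them SERPINH1, a gene known as a heat shock target. Those 3 matches are printed with 9 bases on each side, with the match in capitals. All 3 lie before the RefSeq start but within an annotated exon of a GENCODE transcript that starts earlier.
SPINK13, chr5:148268718-148268742, plus strand: gctatgcgaTGAGTCAgcctccact
SERPINB8, chr18:63970044-63970068, plus strand: gaacggttcTGAGTCAtctgccgga
SERPINH1, chr11:75562173-75562198, plus strand: aactttccaGAAGTTTCtcgggacgg

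Protease inhibitor transcripts were more abundant under olaparib. In bulk RNA, more cells that make a transcript and more transcript per cell cannot be told apart. Of the 45 genes, 20 passed the expression filter and were tested, 14 rose, 5 fell and 1 was not called. The share of all tested genes called was 75.7%, with 35.4% higher and 40.3% lower. The groups did not overlap in 19 of the 20, against 79.4% of all tested genes. A called change of at least 2-fold was seen in 18 members, 13 higher and 5 lower, against 47.0% of all tested genes. The median log2 fold change was 1.67 over the tested members and -0.09 over all tested genes. These figures describe the 20 that passed and not the 45, since a gene seen in 1 group alone passes the filter only through that group. Of the other 25, 15 had 1 to 44 counts in all and 10 had none.

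**Figure D1:**
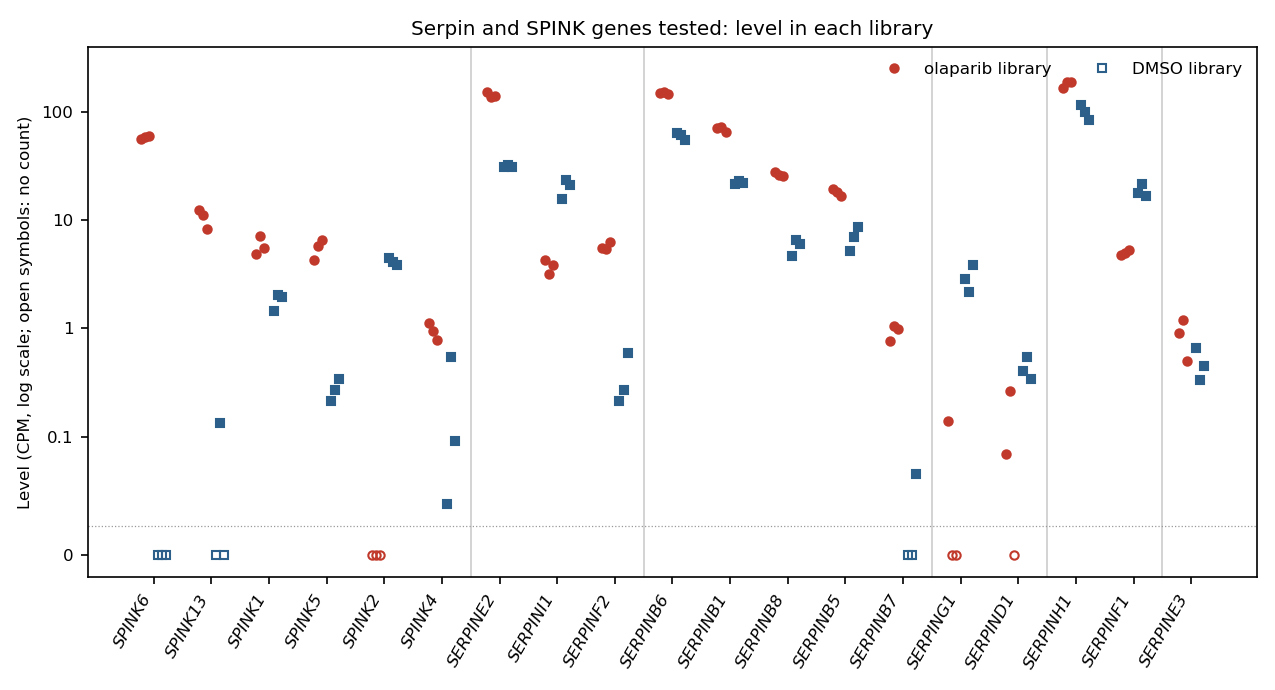
Level of 19 tested serpin and SPINK genes in every library, in CPM on a log axis, with circles for olaparib, squares for DMSO and open symbols at the bottom for no count. SPINK6 has no DMSO count and SPINK2 no olaparib count, and the groups overlap only for SERPINE3.

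The summed level of all 45 genes was 760, 778 and 768 CPM in the olaparib libraries and 295, 297 and 269 CPM in the DMSO libraries, a ratio of 2.68. The groups were far apart and narrow. For the SPINK genes alone the sum was 81.7 ± 2.56 CPM under olaparib and 6.59 ± 0.547 CPM under DMSO, 12.4-fold higher. The composition of that sum changed, with SPINK6 making 71.5% of it under olaparib and SPINK2 63.3% of it under DMSO. The serpin sum was 687 ± 6.61 CPM against 281 ± 15.4 CPM, with SERPINH1 the biggest contributor in both groups at 26.6% and 35.6%. Per kilobase of annotated exon, mean levels under olaparib were 79.8 CPM per kb for SPINK6, 29.1 for SERPINH1, 22.4 for SERPINB1 and 16.2 for SERPINE2. Under DMSO the mean levels were 15.9 CPM per kb for SERPINH1, 8.39 for SERPINI1, 7.21 for SERPINB1 and 6.09 for SERPINF1.

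**Figure D2:**
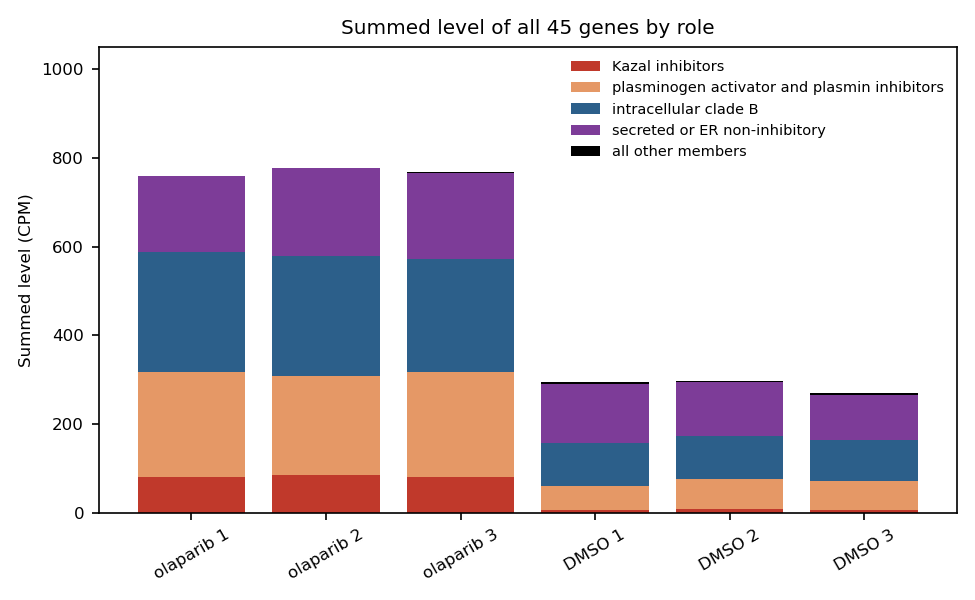
Summed CPM of the 45 genes in each of the 6 libraries, stacked by role. The olaparib bars reach 760 to 778 CPM and the DMSO bars 269 to 297 CPM, and the Kazal inhibitors are a visible band under olaparib alone.

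The only members on in a single group were the Kazal inhibitors SPINK6 and SPINK2. A gene was counted as on in a single group when it had at least 1 CPM in all 3 of that group's libraries and below 0.1 CPM in all 3 of the other's. SPINK6 met this for olaparib, as did 0.429% of all genes with a count, and SPINK2 met it for DMSO, as did 2.02%. Of the 6 SPINK genes tested, 5 rose and SPINK2 fell, beside 35.4% higher and 40.3% lower over all tested genes. SPINK6 and SPINK13 passed the expression filter only through the olaparib libraries, and SPINK2 only through the DMSO libraries. The other 4 SPINK genes were not tested, so this count does not describe the family.

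SPINK6, an inhibitor of kallikrein-related peptidases described in skin, stood at 56.5, 59.3 and 59.6 CPM in the olaparib libraries and had no count in any DMSO library. Its olaparib values are close together, and the groups do not touch. Against a floor of 3 counts over the DMSO libraries it was at least 2262-fold higher, with an adjusted p of 1.99e-10 by edgeR's quasi-likelihood test. SPINK13 stood at 12.3, 11.2 and 8.35 CPM under olaparib and at 0, 0.135 and 0 CPM under DMSO. All 4 of its DMSO counts lie in replicate 2, and the 933 olaparib counts are spread over all 3 libraries. On the log2 scale the fold change was 8.11 ± 0.55 (SE; adjusted p = 6.3e-08, edgeR), and 11.53, 7.49 and 7.44 without DMSO replicate 2, 1 and 3. As a ratio of summed counts it was 309, with a 95% counting interval of 120 to 1137. SPINK13 overlaps AC091948.1 on the other strand, as do SPINK7 and SPINK9. With the strand setting not given, reads of AC091948.1 cannot be told apart from theirs.

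SPINK5 encodes a precursor of many Kazal domains, and its loss causes Netherton syndrome. It stood at 4.33, 5.78 and 6.55 CPM under olaparib and at 0.214, 0.270 and 0.339 CPM under DMSO. Every olaparib library was well above every DMSO library. It rose 19.9-fold, a log2 fold change of 4.32 ± 0.33 (adjusted p = 1.58e-07, edgeR). SPINK1, the trypsin inhibitor secreted by the pancreas and by many tumours, stood at 4.88, 7.22 and 5.59 CPM under olaparib and at 1.45, 2.06 and 1.94 CPM under DMSO. It was the only one of the 5 higher SPINK genes with at least 1 CPM in every DMSO library. The rise was by a log2 fold change of 1.70 ± 0.25, or 3.26-fold (adjusted p = 5.94e-05, edgeR).

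SPINK2, an acrosin inhibitor made in the testis, behaved in the opposite way. It had no count in the olaparib libraries and stood at 4.51, 4.15 and 3.84 CPM under DMSO, from 483 counts. The DMSO libraries were alike in it. Against the floor of 3 counts it was at least 121-fold lower under olaparib (adjusted p = 2.53e-07, edgeR). SPINK4, described in goblet cells of the gut, stood at 1.12, 0.947 and 0.778 CPM under olaparib and at 0.0237, 0.539 and 0.0904 CPM under DMSO. The groups do not overlap, but DMSO replicate 2 holds 16 of the 21 DMSO counts. The log2 fold change was 2.26 ± 0.72 (adjusted p = 0.0124, edgeR). It was 3.94 without DMSO replicate 2 and 1.67 without DMSO replicate 1, and without DMSO replicate 3 the call was lost, at 1.84 with an adjusted p of 0.0796. SPINK4 overlaps BAG1 on the other strand, and whether strand was used in counting is not given, so its reads and those of BAG1 cannot be told apart.

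The SPINK cluster at 5q32 runs over chr5:147824568-148339849 on hg38 in GENCODE release 29 and holds 7 of the 10 SPINK genes. All 4 of those that were tested rose, SPINK14 had no count, and SPINK7 and SPINK9 had 15 and 6 olaparib counts against 4 and 0 under DMSO. SPINK6 (chr5:148202794-148215137) and SPINK13 (chr5:148268180-148286254) are 53042 bases apart. Between them lies MARCOL (chr5:148221650-148243580), a collagen-like gene that was named here after its values were seen. MARCOL had 22.4, 19.0 and 19.6 CPM under olaparib and 0, 0.0674 and 0 CPM under DMSO, or 1779 against 2 counts. The ratio was 1179 with a 95% counting interval of 326 to 9742, and both DMSO counts lie in replicate 2. Its log2 fold change was 9.92, and 12.46 without DMSO replicate 2 or 9.30 without DMSO replicate 3.

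The higher level did not extend to every gene in between. SCGB3A2, a secreted airway protein gene, and C5orf46 lie between SPINK1 and SPINK5 and overlap each other on opposite strands. SCGB3A2 was lower under olaparib, at 0.148 ± 0.0706 CPM against 1.85 ± 0.582 CPM (log2 fold change -3.61 ± 0.49, adjusted p = 2.5e-05, edgeR). C5orf46 was also lower, at 0.151 ± 0.116 CPM against 1.09 ± 0.234 CPM (log2 fold change -2.84 ± 0.54, adjusted p = 0.000437, edgeR), and its log2 fold change was -3.61 without olaparib replicate 3. Of the 11 other genes tested within 1 Mb of the cluster, 6 rose, 4 fell and 1 was not called. Over all tested genes, 35.4% were higher and 40.3% lower.

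**Figure D3:**
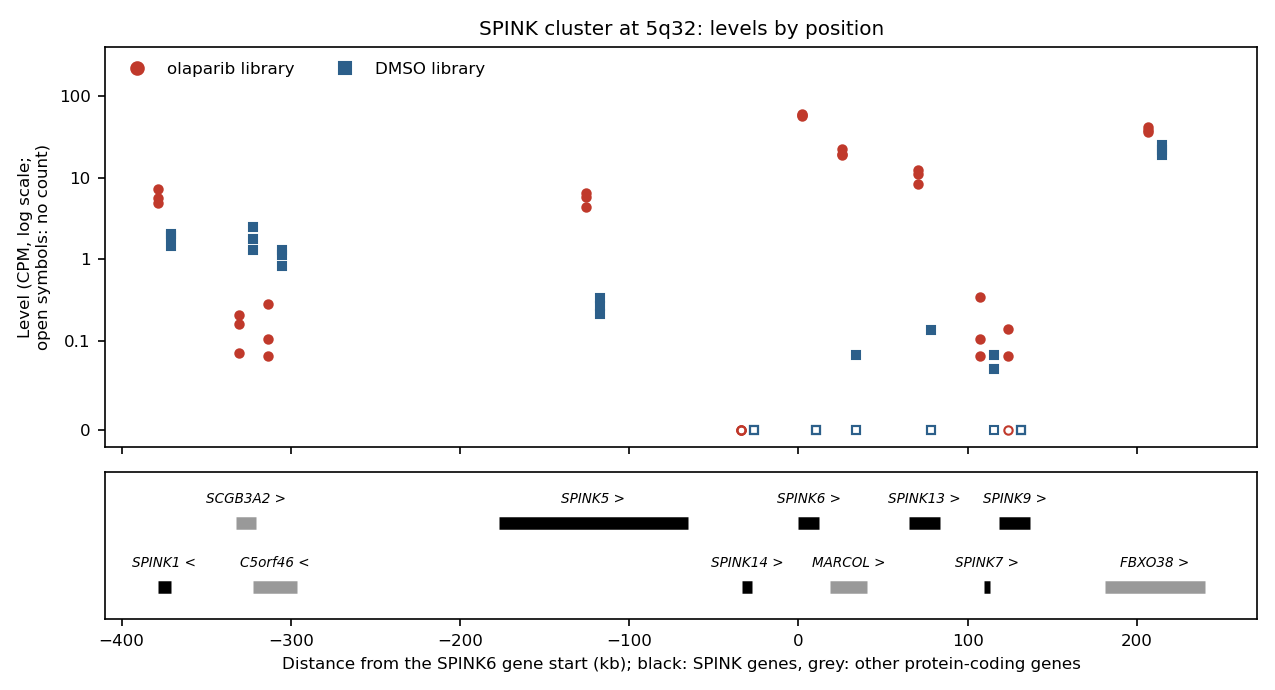
Levels of genes along the 5q32 SPINK cluster in CPM on a log axis, plotted against distance in kb from the start of SPINK6, with circles for olaparib, squares for DMSO and the gene bodies drawn beneath. SPINK5, SPINK6, MARCOL and SPINK13 sit high under olaparib, and SCGB3A2 and C5orf46 sit low.

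The proteases that Kazal inhibitors are known to target were scarce. Of 15 kallikrein-related peptidases in the table, 1 was tested and it was not called: KLK14, at 1.05 ± 0.236 CPM under olaparib and 1.51 ± 0.0676 CPM under DMSO. KLK5 and KLK7, the skin kallikreins that SPINK5 blocks, had 4 against 0 and 0 against 2 counts. PRSS1, the trypsin blocked by SPINK1, had no count in any library. Since SPINK5 and SPINK6 are known from epidermis, 15 keratinocyte markers were read beside them. Of 5 tested, 4 rose and 1 fell, beside 75.7% called over all tested genes. KRT10 lost its call without DMSO replicate 3 (adjusted p = 0.0539, edgeR) and TGM1 without olaparib replicate 2 (0.0827) or DMSO replicate 2 (0.053). FOXN1, a regulator of skin and thymus epithelium, was at 18.4 ± 2.08 CPM under olaparib with no DMSO count, at least 716-fold higher. CDSN had 65 counts under olaparib and 9 under DMSO, all 9 of them in replicate 1. DSC3, a desmosomal cadherin, fell from 44.2 ± 10.3 CPM to 1.66 ± 0.411 CPM. The summed level of the 15 was 61.3 to 70.8 CPM under olaparib and 72.2 to 87.3 CPM under DMSO, and IVL, SPRR1A, SPRR1B and KRT1 were at 0.

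Among inhibitors of plasminogen activators and plasmin, SERPINE2 and SERPINF2 rose and SERPINI1 fell. Plasmin dissolves fibrin and activates matrix proteases, and it is made from plasminogen by urokinase (PLAU) and tissue plasminogen activator (PLAT).

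SERPINE2, the protease nexin that blocks thrombin and urokinase at the cell surface, stood at 152, 138 and 141 CPM under olaparib and at 31.0, 32.2 and 31.3 CPM under DMSO. The DMSO libraries were close together and the groups did not overlap. It was 4.56-fold higher, with a log2 fold change of 2.19 ± 0.10 (adjusted p = 1.98e-09, edgeR).

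SERPINF2, the antiplasmin of plasma, stood at 5.58, 5.39 and 6.30 CPM under olaparib and at 0.214, 0.270 and 0.588 CPM under DMSO. All olaparib libraries were far above all DMSO libraries. The log2 fold change was 3.96 ± 0.36, or 15.6-fold (adjusted p = 7.14e-07, edgeR). DMSO replicate 3 had the highest DMSO value, and without it the log2 fold change was 4.56. SERPINI1, the neuroserpin that inhibits tissue plasminogen activator in the nervous system, went the other way. It stood at 4.33, 3.20 and 3.86 CPM under olaparib and at 15.9, 23.6 and 21.4 CPM under DMSO. No olaparib library came near a DMSO library, and the gene was 5.34-fold lower, with a log2 fold change of -2.42 ± 0.20 (adjusted p = 3.08e-07, edgeR). SERPINB2, a plasminogen activator inhibitor, had 0 counts under olaparib and 2 under DMSO.

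Target proteases of serpins and their clearance receptors and cofactors were read beside these inhibitors. PLAU was 8.96-fold higher, at 13.9 ± 0.954 CPM against 1.57 ± 0.414 CPM (log2 fold change 3.16 ± 0.22, adjusted p = 8.12e-08, edgeR). PLAT was lower, at 6.997 ± 2.18 CPM against 14.04 ± 3.98 CPM (log2 fold change -1.003 ± 0.25, adjusted p = 0.00271, edgeR). PLAUR, the urokinase receptor, rose to 64.5 ± 18.1 CPM from 26.7 ± 4.12 CPM. LRP1, the receptor that clears serpin and protease complexes, rose 4.22-fold, to 364 ± 44.96 CPM from 86.3 ± 18.3 CPM. LRP2, a related receptor, had no count under olaparib and 14, 4.65 and 4.07 CPM under DMSO, at least 228-fold lower. Leaving out DMSO replicate 1, the highest of these, moved its fitted log2 fold change from -11.01 to -10.14. Of 13 extracellular target proteases tested, 8 rose, 2 fell and 3 were not called, with a median log2 fold change of 1.12. Of 10 clearance receptors and cofactors, 6 rose, 3 fell and 1 was not called, with a median of 0.48. The protease list also holds targets of other serpins, such as FURIN and C1S. Its share called was 76.9%, close to the 75.7% over all genes, and that of the receptors and cofactors was 90%.

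**Figure D4:**
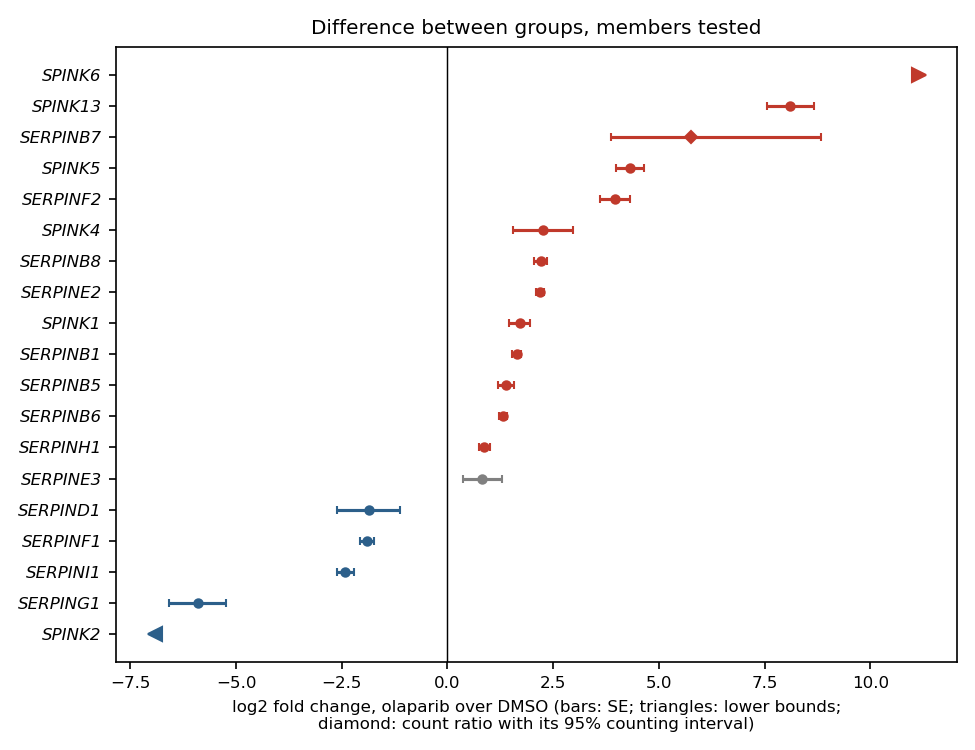
Log2 fold change of olaparib over DMSO for 19 tested members, with bars for SE, triangles for lower bounds where a group has no count and a diamond for the SERPINB7 count ratio with its 95% counting interval. Points right of 0 are 13 members that rose and SERPINE3, which was not called, and the 5 that fell lie left of 0.

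Every clade B serpin that could be tested rose. These serpins lack a secretion signal and work mostly inside cells, where they protect against proteases that leak from granules and lysosomes. Of 12 listed here, 5 were tested and all 5 rose, beside 35.4% of all tested genes. The summed level of the 12 was 265 ± 9.42 CPM under olaparib and 95.4 ± 2.90 CPM under DMSO. SERPINB2 was counted with the plasminogen inhibitors above.

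SERPINB6, an inhibitor of cathepsin G, stood at 149, 154 and 146 CPM under olaparib and at 64.6, 60.8 and 55.3 CPM under DMSO. The groups were clearly separate. Its log2 fold change was 1.31 ± 0.10, or 2.49-fold (adjusted p = 1.48e-07, edgeR). SERPINB1, an inhibitor of neutrophil elastase, lies near it at 6p25 and stood at 71.1, 72.2 and 64.8 CPM under olaparib and at 21.7, 23.2 and 22.1 CPM under DMSO. It showed little spread in either group, and no overlap. The rise was 3.11-fold, with a log2 fold change of 1.64 ± 0.10 (adjusted p = 3.15e-08, edgeR). SERPINB9, the granzyme B inhibitor that lies between them, had 12 counts under olaparib and 7 under DMSO and was not tested.

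The larger clade B cluster at 18q21 spans chr18:63476761-64019779 and holds 10 members, of which SERPINB5, SERPINB7 and SERPINB8 were tested. SERPINB8, an inhibitor of furin, stood at 28.0, 26.0 and 25.7 CPM under olaparib and at 4.68, 6.64 and 6.01 CPM under DMSO. No library of one group came near the other. Its rise was 4.61-fold, a log2 fold change of 2.20 ± 0.16 (adjusted p = 1.06e-07, edgeR). Its gene overlaps HMSD on the same strand, which had 29, 34 and 38 counts under olaparib and 0, 1 and 0 under DMSO, so some reads of the pair may be shared. The AP-1 match before the RefSeq start of SERPINB8 is printed above.

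SERPINB5, known as maspin and no longer an inhibitor, stood at 19.4, 18.1 and 16.9 CPM under olaparib and at 5.25, 7.01 and 8.59 CPM under DMSO. The DMSO libraries were more spread, yet all were below the olaparib libraries. It was 2.61-fold higher, with a log2 fold change of 1.38 ± 0.19 (adjusted p = 2.59e-05, edgeR). SERPINB5 overlaps AC036176.3 and ATP5MC1P6 on the same strand, so some reads may be shared. SERPINB7, whose loss causes a palmoplantar keratosis, was near the limit of detection at 0.768, 1.05 and 0.991 CPM under olaparib and 0, 0 and 0.0452 CPM under DMSO. Its 82 olaparib counts compare with 2 DMSO counts, both in replicate 3. The count ratio was 54.3 with a 95% counting interval of 14.6 to 456, and the adjusted p was 2.65e-05 by edgeR's quasi-likelihood test. The log2 fold change was 5.50 ± 0.75, and 7.90 without DMSO replicate 3.

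SERPINB3 and SERPINB4, the squamous cell carcinoma antigens, had 13 and 16 counts under olaparib and 0 under DMSO, and neither passed the filter. Of the SERPINB3 counts, 11 lie in olaparib replicate 1. SERPINB3 and SERPINB4 share 247 of 250 promoter bases. Their transcripts were not compared, and reads may be split between them. SERPINB10 had 1 count and SERPINB12 had 3, and SERPINB11 and SERPINB13 had none.

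Clade B serpins are also known to inhibit cysteine proteases, and 9 of these were read beside them. All 9 were tested, 7 rose and 2 fell, beside 35.4% higher and 40.3% lower over all tested genes. The median log2 fold change of the 9 was 0.73. CTSL, the lysosomal cathepsin L, was 2.94-fold higher, at 343 ± 57.7 CPM against 117 ± 11.9 CPM (log2 fold change 1.56 ± 0.13, adjusted p = 5.01e-07, edgeR). CTSS rose 152-fold, to 35.6 ± 4.30 CPM from 0.212 ± 0.155 CPM, while CTSV fell, to 2.01 ± 0.372 CPM from 21.9 ± 2.46 CPM. FURIN, the target of SERPINB8, rose 3.02-fold, to 340.1 ± 1.71 CPM from 113 ± 4.56 CPM.

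Coagulation and complement inhibitors were low in both groups. Of 5 in this role, SERPING1 and SERPIND1 were tested and both fell, beside 40.3% lower over all tested genes. SERPING1 passed the expression filter only through the DMSO libraries, and the SERPIND1 call was lost in several refits. SERPING1, the inhibitor of the first complement proteases C1R and C1S, stood at 0.140, 0 and 0 CPM under olaparib and at 2.85, 2.16 and 3.84 CPM under DMSO. All 4 olaparib counts lie in replicate 1, against 354 DMSO counts spread over all libraries. The log2 fold change was -5.91 ± 0.67, or 59.98-fold lower (adjusted p = 6e-06, edgeR), and -9.70 without olaparib replicate 1. Its target C1S moved in the opposite direction, at 51.6 ± 5.24 CPM under olaparib and 2.81 ± 0.469 CPM under DMSO, 18.4-fold higher.

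SERPIND1, the heparin cofactor that blocks thrombin, stood at 0.0698, 0.261 and 0 CPM under olaparib and at 0.404, 0.539 and 0.339 CPM under DMSO. The groups do not overlap, but the values rest on 10 and 48 counts. The log2 fold change was -1.86 ± 0.75 (adjusted p = 0.0387, edgeR). The call was lost under DESeq2 (adjusted p = 0.0981) and without olaparib replicate 1 (0.118) or 3 (0.129) or DMSO replicate 1 (0.0662), 2 (0.107) or 3 (0.0692), and the log2 fold change was -3.46 without olaparib replicate 2. SERPIND1 lies within PI4KA on the opposite strand, so stray reads of that gene cannot be separated from it. SERPINC1, antithrombin, had 22 counts in each group, a ratio of 1.33 after scaling to library size, with a 95% counting interval of 0.70 to 2.51. SERPINA10 had 0 counts under olaparib and 15 under DMSO, at least 3.77-fold lower against the floor, and SERPINA5 had 0 and 5.

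A pair of serpins that inhibit no protease made up the rest of the abundant members, and they moved in opposite directions. SERPINH1, the collagen chaperone of the endoplasmic reticulum, stood at 167, 192 and 190.2 CPM under olaparib and at 116, 99.9 and 84.0 CPM under DMSO. The groups were spread but did not overlap. Its rise was the smallest of the called members, with a log2 fold change of 0.87 ± 0.12, or 1.83-fold (adjusted p = 3.95e-05, edgeR). Of 17 collagen and collagen-folding genes tested, 12 rose, 3 fell and 2 were not called, beside 75.7% called over all tested genes. The median log2 fold change of the 17 was 0.67. Among them FKBP10, a collagen prolyl isomerase, rose 3.004-fold and COL5A1 3.63-fold, while COL2A1, the cartilage collagen, was 259-fold lower and COL5A2 29.4-fold lower.

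SERPINF1, a secreted factor that restrains blood vessel growth, stood at 4.78, 4.93 and 5.34 CPM under olaparib and at 17.9, 21.5 and 16.6 CPM under DMSO. No values overlapped, and it was 3.72-fold lower, with a log2 fold change of -1.89 ± 0.16 (adjusted p = 5.13e-07, edgeR). SERPINF1 (chr17:1761959-1777574) and the higher SERPINF2 (chr17:1742836-1755268) are neighbours on the same strand with 6690 bases between them. Of the 31 other genes tested within 1 Mb of the pair, 17 rose, 8 fell and 6 were not called. Over all tested genes, 35.4% were higher and 40.3% lower.

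The remaining members were at or near 0. SERPINE3 was the tested gene that was not called, at 0.907, 1.21 and 0.495 CPM under olaparib and 0.665, 0.337 and 0.452 CPM under DMSO. Its groups overlap, and its log2 fold change was 0.83 ± 0.46 (adjusted p = 0.12, edgeR). SERPINE3 overlaps INTS6 on the other strand. The clade A cluster at 14q32 (chr14:94280455-94624055), which makes the major serpins of plasma in liver, had 10 members, none tested and 6 without a count. SERPINA6, the cortisol carrier, had 0 counts under olaparib and 12 under DMSO, at least 3.02-fold lower against the floor. SERPINA1, the main elastase inhibitor of plasma, had 0 and 4. Of 12 hepatocyte markers, none reached 1 CPM in a group mean, with summed levels of 0 to 0.314 CPM under olaparib and 1.09 to 2.55 CPM under DMSO. SPINK8 had 0 and 4 counts and SERPINI2 had 2 and 0. No count was seen for SPINK14, SERPINA2, SERPINA3, SERPINA4, SERPINA7, SERPINA9, SERPINA11, SERPINA12, SERPINB11 or SERPINB13.

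Protease inhibitors outside both families were mixed. Of 33 in the table, 22 were tested, 10 rose, 8 fell and 4 were not called, beside 75.7% called over all tested genes. The median log2 fold change of the 22 was 0.28, beside 1.67 for the tested serpin and SPINK genes. SLPI, the secreted leukocyte protease inhibitor, rose 13.5-fold, to 41.7 ± 1.01 CPM from 3.10 ± 0.562 CPM. TFPI, which blocks the start of coagulation, rose 8.75-fold, to 201 ± 50.7 CPM from 23.0 ± 3.30 CPM. SPOCK1 rose 28.8-fold, to 45.7 ± 12.8 CPM from 1.60 ± 0.365 CPM. SPOCK2 rose 7.83-fold, to 37.4 ± 2.91 CPM from 4.79 ± 0.376 CPM. SPINT2, a Kunitz inhibitor of cell surface proteases, rose 4.35-fold, to 4.71 ± 1.23 CPM from 1.09 ± 0.355 CPM (adjusted p = 6.99e-05, edgeR). SPINT1 had 10 counts in each group. Unlike SPOCK1 and SPOCK2, SPOCK3 fell, with 0 counts under olaparib and 735 under DMSO, at least 185-fold lower. WFDC2 had 0 and 67, at least 16.9-fold lower. PZP had 1, 6 and 10 counts under olaparib and 230, 106 and 276 under DMSO, and CST3, the main secreted cystatin, was 2.44-fold lower. SPOCK3, WFDC2, PZP and CST3 were named after their values were seen. AGT, the serpin-fold precursor of angiotensin, was not called, at 0.696 ± 0.0626 CPM and 0.538 ± 0.0374 CPM (adjusted p = 0.394, edgeR).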

How the data were processed

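RNA-seq was deposited for 6 libraries of RKO cells, 3 labelled olaparib and 3 labelled DMSO. The authors deposited raw read counts per gene. Per the submitters' processing notes, fastp, STAR and hg38 were used. Which program counted the reads, with which annotation and whether by strand, is not given in the sources. Nothing in the labels says that replicates are separate cultures, so p-values measure the spread between these libraries. Libraries of a group were not copies of each other (chi-square per degree of freedom 4.74 to 68.6). Each library had more genes at 2 counts than at 1, as when both reads of a pair count, which makes the counting intervals too narrow. Those intervals and floors cover counting error alone.

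All genes were fitted together in edgeR 4.0.16 (R 4.3.3) using the default expression filter, TMM scaling and robust quasi-likelihood fits with group as the single term, with Benjamini-Hochberg adjustment at 0.05. The procedure was tested on simulated data in which only a small set of genes was changed. That setting differs from these data, with 75.7% called, so it does not show how the calls behave here. CPM were computed on TMM-scaled library sizes, given as mean ± SD over 3 libraries, and SE were derived from the F statistic. A group at 0 was set to a floor of 3 counts over its 3 libraries, and ratios of few counts carry 95% counting intervals. Positions came from GENCODE release 29, which matched all 45 genes, and upstream sequence from RefSeq. Members with a mean of at least 1 CPM in a group are described by library (1 tested member is not reported here, though counts and sums include it), and of each of 13 lists up to 4 called genes with the smallest adjusted p. The members and lists were chosen with earlier results of these data known. Alternatives were DESeq2 1.42.0, limma-voom (limma 3.58.1), other scalings and filters, a replicate block, counts divided by 2 and leaving out each library.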

Additional observations from a re-analysis of the deposited data

How the results depend on the processing

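Over 14 refits, 12 to 16 serpin and SPINK genes rose and 4 to 6 fell, beside 11762 to 14226 genes called in all. Of the 20 tested members, 18 kept their direction and their call in each refit that tested them, and the exceptions were SERPIND1 and SPINK4. No result reversed. Without the expression filter 35 members were tested, 16 higher and 6 lower, and the added calls were SERPINB3, SERPINB4 and SERPINA10. DESeq2 gave 15 higher, SERPINB4 among them, and 4 lower. The number on in olaparib alone was 2 with on set at 0.5 CPM (SERPINB7 and SPINK6), and 1 to 2 when each library was left out, the second being SPINK13 without DMSO replicate 2. The number on in DMSO alone was 1 to 2 when each library was left out, the second being SERPING1 without olaparib replicate 1. Same-numbered libraries did not deviate together (correlations -0.18, -0.13 and -0.01), and different-numbered ones had correlations from -0.11 to 0.18. With 3 libraries in each group, these values cannot tell whether the numbers pair the samples. With the replicate number as a block, 12426 genes were called and 14 members were higher and 5 lower. The 25 members that were not tested had at most 44 counts in all, and 10 of them had none. Of the 25, only SERPINB3, SERPINB4 and SERPINA10 were called, and only in the refits named above. Differences in the others may have been missed at this depth.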

Other observations

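The genes around the clade A cluster at 14q32 were mostly lower under olaparib: of 15 tested within 1 Mb, 2 rose, 11 fell and 2 were not called, with a median log2 fold change of -1.43. Around the 6p25 cluster, where SERPINB1 and SERPINB6 rose, 12 other genes were tested, 4 rose, 6 fell and 2 were not called, with a median of -0.42. Around the 18q21 cluster 6 were tested, 4 rose and 2 fell, BCL2 among the latter at a log2 fold change of -1.91. These counts have no test of their own and are read beside 35.4% higher and 40.3% lower over all genes tested.

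Among digestive, leukocyte and granule serine proteases, 4 of 18 were tested and 3 rose, beside 75.7% called over all tested genes. PRSS23 was 3.11-fold higher, at 193 ± 9.51 CPM under olaparib and 62.2 ± 4.90 CPM under DMSO. PRSS22 was 19.5-fold higher, at 1.79 ± 0.469 CPM against 0.0979 ± 0.0930 CPM, with a log2 fold change of 5.16 without DMSO replicate 2. DMSO replicate 2 also holds all DMSO counts of SPINK13, MARCOL and HMSD. Its part in these values was not tested beyond leaving it out.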
